A study of Mus musculus with 18 samples.

Results

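The 5 genes described here encode receptors of natural killer (NK) cells: Ncr1 (NKp46), Klrk1 (NKG2D), Klrd1 (CD94), Klrc1 (NKG2A) and Klrg1 (KLRG1). Their probe sets were taken as all those on the U74A, U74B and U74C arrays whose platform annotation names 1 of these genes and no other. This found all 5 among the 15964 genes so named, with 7 of 36701 probe sets, 6 on U74A, 1 on U74B and 0 on U74C. Klrk1 had 3 probe sets and each of the other genes 1. All 7 were among the 23285 probe sets with a signal of at least 60 on 2 or more of their 6 arrays, a filter that a probe set can pass through 1 population alone. The arrays compared 3 cell populations of the mouse spleen. The labels call the first interferon producing killer-dendritic cells, written IKDC here. The second is plasmacytoid dendritic cells (PDC) and the third, the submitters' control, conventional dendritic cells (cDC). Each population had 2 samples, prepared separately per the series design, and each sample was hybridised to all 3 array types. Strain, genotype, age, treatment and the sorting of the cells are not given in the sources used here. Nothing states that the samples came from separate animals, so the p-values measure the spread between these samples, part of which may be technical.

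NK cells read their targets through activating and inhibitory receptors, and many of these are lectin-like proteins encoded side by side in the NK gene complex. NKp46 is an immunoglobulin-like activating receptor that is widely used to mark NK cells. NKG2D is an activating receptor for stress-induced ligands and signals through the adaptors DAP10 and, in mouse, DAP12. CD94 pairs with NKG2A into an inhibitory receptor for the nonclassical MHC molecule Qa-1, and KLRG1 is an inhibitory receptor for cadherins.

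In the GRCm38.p6 gene table, Klrd1, Klrk1, Klrc3, Klrc2 and Klrc1 follow each other on chromosome 6 with no other protein-coding gene between them. Klrg1 lies apart on chromosome 6, between Mug2 and M6pr, and Ncr1 on chromosome 7, between Lilra5 and Gp6. The promoter table (RefSeq, GRCm38.p6) held 3 of the 5 genes. The 250 bases before the start of each of these 3 are shown because the genes were all high in IKDC. Capitals mark the letters TGTGGT on either strand (ACCACA where they lie on the other strand), the core that RUNX factors are known to bind.
Ncr1, chr7:4337465-4337714, plus strand: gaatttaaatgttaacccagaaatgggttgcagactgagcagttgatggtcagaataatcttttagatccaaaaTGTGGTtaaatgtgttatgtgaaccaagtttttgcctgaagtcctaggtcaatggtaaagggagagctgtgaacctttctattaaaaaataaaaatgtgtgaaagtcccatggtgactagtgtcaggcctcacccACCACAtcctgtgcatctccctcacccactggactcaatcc
Klrk1, chr6:129623865-129624114, minus strand: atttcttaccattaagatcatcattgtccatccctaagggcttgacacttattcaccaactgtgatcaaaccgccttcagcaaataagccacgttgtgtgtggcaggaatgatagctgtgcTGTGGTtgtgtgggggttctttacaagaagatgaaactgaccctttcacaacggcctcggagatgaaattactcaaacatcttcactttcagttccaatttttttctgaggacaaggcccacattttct
Klrc1, chr6:129678974-129679223, minus strand: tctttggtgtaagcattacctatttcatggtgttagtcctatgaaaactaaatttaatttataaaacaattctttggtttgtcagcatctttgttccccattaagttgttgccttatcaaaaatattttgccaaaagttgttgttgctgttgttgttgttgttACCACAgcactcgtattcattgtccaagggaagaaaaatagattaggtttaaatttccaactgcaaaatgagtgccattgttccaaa
Ncr1 had 2 matches, which began 176 and 41 bases before the start. Klrk1 had 1 match at 129 bases and Klrc1 had 1 at 87 bases. Of all 32851 promoter windows of this length, 14.0% held TGTGGT on either strand. None of the 3 windows held the T-box letters GGTGTG (16.3% of all windows), the ETS letters AGGAAG (29.5%) or the STAT letters TTCNNNGAA (7.0%), and a match is a description of letters, not of binding. The 4 motifs were chosen after the sequences had been seen.

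Signals are the deposited values on a linear scale, on which every array was scaled to a mean of 150. Array medians ran from 51.7 to 87.3, and samples of 1 population correlated at 0.836 to 0.967 across probe sets on the log2 scale, samples of different populations at 0.811 to 0.91. The ratio of 3' to 5' Gapdh signal on U74A, which shortened RNA raises, was 3.19 to 4.74 on 5 arrays and 6 in PDC replicate 1. On U74C it was highest in cDC replicate 1, at 5.84, beside 5.45 in PDC replicate 1. Marker genes were set against the labels with 1 probe set per gene. Of 7 tested plasmacytoid markers all 7 were higher in PDC than in cDC by limma. Of 9 conventional dendritic cell markers 7 were lower in IKDC than in cDC and none was higher. Of 10 listed NK markers 7 could be tested, and all 7 were higher in IKDC than in cDC and than in PDC. Eomes, 1 of them, passed the signal filter through IKDC alone. The probe set of Itga2, another listed NK marker, did not pass it. Bacterial control probe sets that were not spiked in reached at most 45.2 on U74A, 122.7 on U74B and 148.7 on U74C. A fitted difference from samples under these values rests on signals not shown to be above background.

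All 7 receptor probe sets were higher in IKDC than in cDC, and all 7 were higher in IKDC than in PDC. Both IKDC samples lay above both samples of each other population at every one of these probe sets. A call is a limma adjusted p under 0.05, taken over all 23285 tested probe sets. By that rule 2.68% of tested probe sets were higher and 2.92% lower in IKDC than in cDC, 5.6% in either direction. Against PDC, 2.06% were higher and 2.39% lower in IKDC, 4.45% in either direction. Both samples of IKDC lay above both of cDC at 24.9% of tested probe sets, and above both of PDC at 21.7%. The median difference of the 7 was 2.69 log2 units against cDC and 2.10 against PDC, beside -0.013 and -0.016 over all tested probe sets. Without IKDC replicate 1, 4 of the 7 were called against cDC and 3 against PDC, and without IKDC replicate 2 it was 4 against PDC. In bulk samples, a smaller share of cells that carry a transcript and less of it per cell cannot be told apart.

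**Figure D1:**
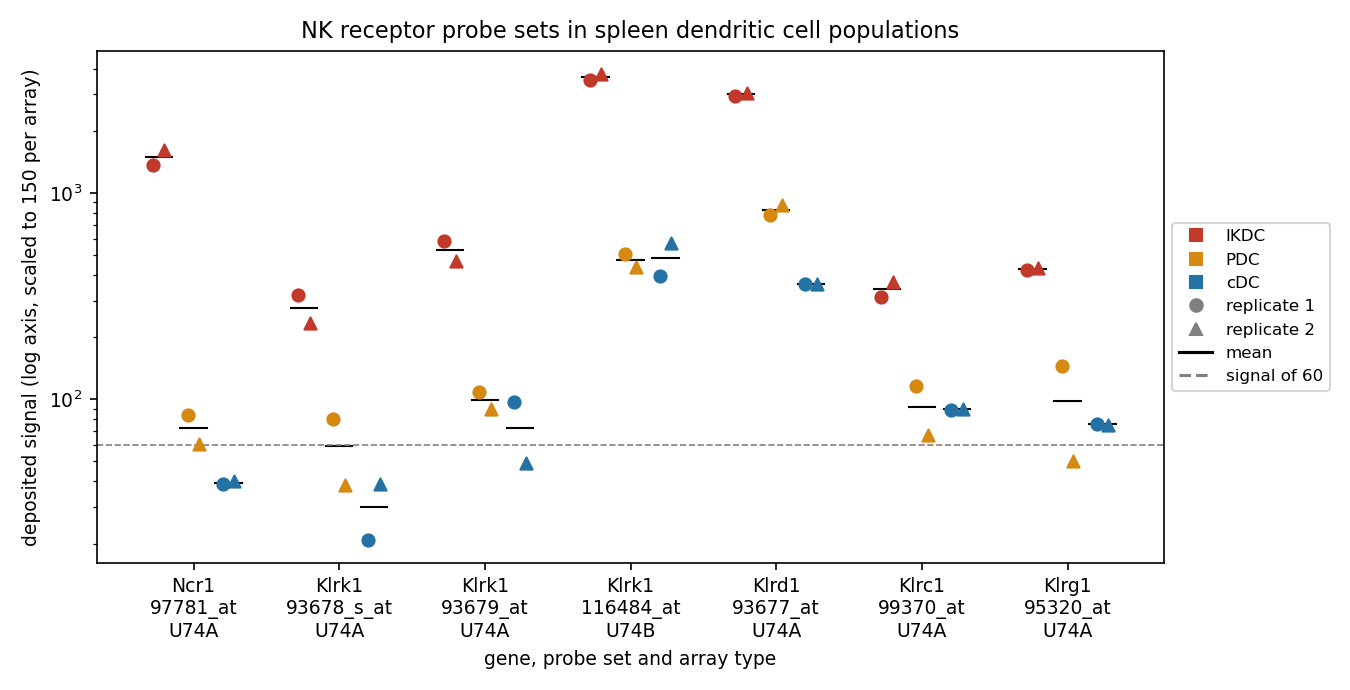
Deposited signal (log axis) of the 7 receptor probe sets in each sample; colour gives the population, the symbol the replicate, black bars the mean of 2 samples, and the dashed line the signal minimum of 60. The IKDC samples stand above every PDC and cDC sample at each probe set; heights are to be compared within a probe set only.

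Ncr1 (probe set 97781_at) differed most. Its signal was 1357.3 and 1608.1 in IKDC, 84.2 and 60.9 in PDC and 38.8 and 40.1 in cDC. The cDC values lay under the highest unspiked control of that array type, so the transcript has only an upper bound there. The mean was 1483 ± 177 in IKDC (SD, n = 2), at least 24.6-fold above cDC when cDC is set to the minimum of 60. The log2 difference, which is of log2(signal + 16) here and below, was 4.75 ± 0.30 as fitted to those cDC values (SE; limma adjusted p = 1.79e-05). Against PDC the difference was 4.09 ± 0.30 log2 units (limma adjusted p = 1.97e-05), or 20.6-fold between geometric means.

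Klrk1, the NKG2D gene, was read by 3 probe sets. The U74B probe set 116484_at had signals of 3516.3 and 3762.8 in IKDC, 505.4 and 438.3 in PDC and 395.2 and 571.1 in cDC. PDC and cDC overlapped there, and all 4 of their samples lay above the highest unspiked control. The difference was 2.89 ± 0.25 log2 units against cDC (limma adjusted p = 1.5e-04) and 2.91 ± 0.25 against PDC (limma adjusted p = 1.54e-04), which are 7.66-fold and 7.73-fold between geometric means.

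On U74A, 93679_at read 583.7 and 468.9 in IKDC, 108.3 and 90.1 in PDC and 96.8 and 49.1 in cDC. The third probe set, 93678_s_at, read 318.2 and 234.9 in IKDC, 79.9 and 38.2 in PDC and 20.9 and 38.9 in cDC. PDC and cDC overlapped at 93679_at, and at 93678_s_at PDC replicate 2 lay just under cDC replicate 2. Both cDC samples and PDC replicate 2 were under the highest unspiked U74A control at 93678_s_at, so its fitted differences rest in part on such signals. Their differences against cDC were 2.65 ± 0.34 and 2.69 ± 0.41 log2 units (limma adjusted p = 7.92e-04 and 0.00235), and 93678_s_at was at least 4.56-fold higher against the minimum of 60. Against PDC they were 2.23 ± 0.34 and 2.01 ± 0.41 (limma adjusted p = 0.00275 and 0.0161). The 95% intervals of the 3 probe sets overlapped in both comparisons, from 1.79 to 3.58 log2 units against cDC and from 1.11 to 3.47 against PDC. Probe sets with the suffix _s_at can take up signal from more than 1 transcript. Without IKDC replicate 1 the call of 93678_s_at against cDC ended (limma adjusted p = 0.0578, in a range of 1.74e-04 to 0.0578 over all alternatives). Its call against PDC ended without IKDC replicate 1 (0.228), IKDC replicate 2 (0.102) or PDC replicate 2 (0.0672) (limma adjusted p, range 0.00386 to 0.228). That of 93679_at against PDC ended without IKDC replicate 1 (limma adjusted p = 0.0542, range 1.52e-04 to 0.0542).

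The CD94 and NKG2A genes, whose products form 1 receptor, were both higher in IKDC. Klrd1 (93677_at) had signals of 2949.5 and 3050.6 in IKDC, 778.3 and 876.7 in PDC and 360 and 362.4 in cDC, and no 2 populations overlapped. It stood above the highest unspiked control in all 6 samples. Its difference was 2.999 ± 0.25 log2 units between IKDC and cDC (limma adjusted p = 4.98e-05) and 1.84 ± 0.25 between IKDC and PDC (limma adjusted p = 0.00131). These are 8.3-fold and 3.63-fold between geometric means.

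Klrc1 (99370_at) had signals of 312.8 and 370.7 in IKDC, 115.6 and 67.1 in PDC and 89.1 and 89.6 in cDC. The PDC samples lay on either side of the cDC samples. The difference was 1.76 ± 0.33 log2 units against cDC (limma adjusted p = 0.00876) and 1.77 ± 0.33 against PDC (limma adjusted p = 0.00935), 3.81-fold and 3.87-fold. Klrc1 has close neighbours in sequence, Klrc2 and Klrc3, which are not analysed here, and the probe set may take up signal from them. The Klrc1 call against cDC ended without IKDC replicate 1 (limma adjusted p = 0.0666), IKDC replicate 2 (0.12), cDC replicate 1 (0.0618) or cDC replicate 2 (0.0647), in a range of 0.00254 to 0.12. Against PDC it ended without IKDC replicate 1 (limma adjusted p = 0.075) or replicate 2 (0.142), in a range of 0.00263 to 0.142.

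Klrg1 (95320_at), the gene of the cadherin receptor, had signals of 423.2 and 433.7 in IKDC, 144.9 and 50.4 in PDC and 76 and 75.4 in cDC. The IKDC and cDC samples were close to each other within each population, while the PDC samples were 2.88-fold apart and enclosed those of cDC. The difference was 2.28 ± 0.40 log2 units against cDC (limma adjusted p = 0.00573) and 2.10 ± 0.40 against PDC (limma adjusted p = 0.0103), 5.66-fold and 5.01-fold. The call against cDC ended without IKDC replicate 1 (limma adjusted p = 0.0517), IKDC replicate 2 (0.0567) or cDC replicate 2 (0.0504), in a range of 3.25e-04 to 0.0567. Against PDC it ended without IKDC replicate 1 (limma adjusted p = 0.0847) or replicate 2 (0.0947), in a range of 8.42e-04 to 0.0947.

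Between PDC and cDC, Klrd1 was the 1 called probe set of 7, higher in PDC by 1.16 ± 0.25 log2 units (limma adjusted p = 0.028), or 2.29-fold. By that rule 1.73% of all tested probe sets were higher and 1.92% lower in PDC, 3.65% in either direction. Of the 7 probe sets, 2 had both PDC samples above both cDC samples, Klrd1 and Ncr1, beside 20.5% of all tested probe sets, and 5 overlapped. The Klrd1 call ended without any 1 of the 6 samples, at limma adjusted p of 0.0585 to 0.127 while the difference stayed at 1.07 to 1.24. It also ended after median centring (0.0629), with only those 2 populations in the fit (0.0684) and without the intensity trend (0.0842), in a range of 0.015 to 0.127 over all alternatives.

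For Ncr1 the difference between PDC and cDC was 0.66 log2 units, with a 95% interval of 0.0041 to 1.32 before adjustment (limma adjusted p = 0.332). The intervals of the remaining probe sets included 0. They ran from -0.22 to 1.58 for 93678_s_at, -0.33 to 1.18 for 93679_at and -0.58 to 0.55 for 116484_at of Klrk1. They ran from -0.74 to 0.71 for Klrc1 and from -0.70 to 1.05 for Klrg1. The median difference of the 7 probe sets was 0.42 log2 units, beside -0.0099 over all tested probe sets. PDC versus cDC and IKDC versus cDC share the cDC samples, and IKDC versus PDC shares samples with both.

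**Figure D2:**
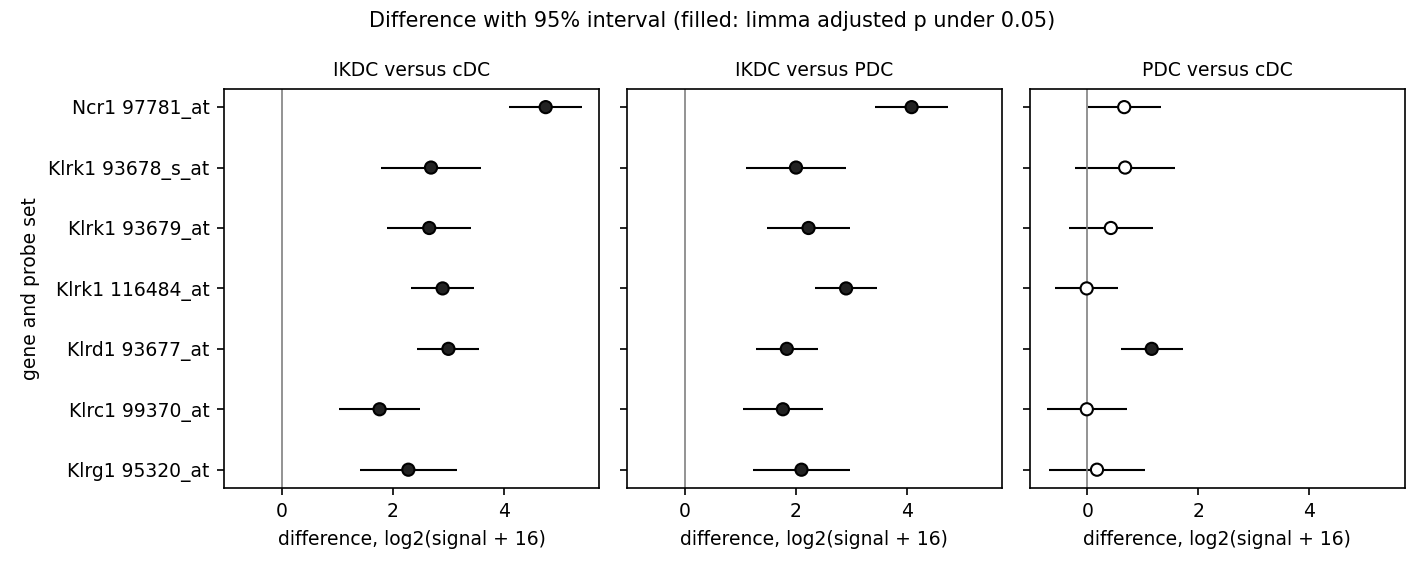
Difference in log2(signal + 16) of each receptor probe set in the 3 comparisons, with 95% intervals from limma; filled points passed an adjusted p of 0.05. All 7 points are filled and right of 0 in both comparisons of IKDC, and 1, Klrd1, is filled between PDC and cDC.

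The order of the populations was IKDC, then PDC, then cDC for Ncr1 and Klrd1, with separate samples at each step. For Ncr1 the lower step did not pass the test. For Klrc1, Klrg1 and the Klrk1 probe sets IKDC came first, and PDC and cDC could not be ordered beyond their spread. The PDC samples differed from each other in 1 direction at most of these probe sets. Replicate 1 was above replicate 2 at 6 of 7, by 1.15-fold to 2.88-fold, and below it at Klrd1, by 1.13-fold. The median of all probe sets on an array was also higher in PDC replicate 1, 66.95 and 52.3 on U74A and 87.3 and 75.8 on U74B. The share of all tested probe sets with PDC replicate 1 above replicate 2 was not computed. In the IKDC population the higher sample was 1.02-fold to 1.35-fold above the lower one over the 7 probe sets, and in cDC 1.01-fold to 1.97-fold.

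Several other measures moved with that gap in PDC. Of 7 tested NK markers 6 were higher in PDC replicate 1, the granule protease genes Gzma (511.3 and 214.7) and Gzmb (247.2 and 92.7) among them. The summed signal of the 7 NK markers was 4290 in PDC replicate 1 and 2730 in replicate 2. It was 2431 and 3229 in cDC and 42392 and 47016 in IKDC. Nkg7, read on U74C, made up most of each sum, with 2679.5 and 1813.3 in PDC. The gap was not particular to NK markers. Sums were also higher in PDC replicate 1 for B cell (1074 and 509), macrophage (654 and 401), erythroid (22622 and 9749), neutrophil (557 and 121) and conventional dendritic cell markers (24613 and 23630). They were lower there for T cell (793 and 1100) and plasmacytoid markers (50169 and 56889). The ratio of 3' to 5' Gapdh signal on U74A was 6 in PDC replicate 1 and 3.19 in replicate 2. On U74C it was 5.45 and 3.77 in those samples, and 5.84 and 5.29 in cDC. The part of these measures in the PDC values of the receptor genes was not tested.

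T cells can carry NKG2D, CD94 and KLRG1 as well, and 4 of 12 listed T cell markers could be tested. Their summed signal was 1106 and 712 across the IKDC samples, 793 and 1100 across PDC and 494 and 360 across cDC. By limma, Cd3g, a chain of the T cell receptor complex, and Cd28, a costimulatory receptor, were higher in IKDC than in cDC, and Cd3d and Cd4 did not pass. Cd3g read 466.5 and 172.9 in IKDC, 66.2 and 5.2 in PDC and 22.5 and 5.8 in cDC. Cd28 read 359.9 and 307 in IKDC, 183 and 223.2 in PDC and 56.8 and 46.7 in cDC. Cd4, a coreceptor that some dendritic cells also carry, read 177.5 and 108.3 in IKDC, 398.7 and 769.8 in PDC and 268.7 and 266 in cDC, and was lower in IKDC than in PDC (limma adjusted p = 0.0108). Cd3d, read on U74C, was under the highest unspiked control in all 6 samples. The probe sets of Cd3e, Cd5 and Cd6 did not pass the filter on low signals. Of 4 tested erythroid markers, 3 were higher in IKDC than in cDC and 3 were higher in PDC than in cDC, and the list summed to 14568 and 17083 in IKDC, 22622 and 9749 in PDC and 1045 and 1969 in cDC. Of 5 macrophage markers 4 were lower in IKDC than in cDC, and of 4 neutrophil markers 2 were. The sum of 5 tested B cell markers was 1899 and 738 in IKDC beside 861 and 751 in cDC. The part of these transcripts in the receptor values was not tested.

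Among other NK cell lectin-like and immunoglobulin-like receptors, 9 of 20 listed genes could be tested. Of these 9, 5 were higher in IKDC than in cDC and none was lower, with a median difference of 2.78 log2 units. Over the 12193 tested genes, each read by 1 probe set, 3.50% were higher in that comparison and the median was 0.013. Of the 5, Klrb1a, whose difference is the median of the 9, and Crtam passed the signal filter through IKDC alone. Klre1, which lies next to Klrd1 in the gene complex, read 1267.8 and 853.4 in IKDC, 147.1 and 120.5 in PDC and 122 and 97.8 in cDC (limma adjusted p = 3.75e-04 against cDC). Both cDC samples and PDC replicate 2 were under the highest unspiked U74B control, so no fold is given for Klre1. Klrb1a, of the NKR-P1 family, read 425.5 and 462 in IKDC against 49.9 and 51.6 in cDC, at least 7.39-fold higher (limma adjusted p = 4.65e-04).

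Cd96, a receptor for nectin-like ligands, was at least 7.22-fold higher (limma adjusted p = 2.79e-04), and Cd160, an immunoglobulin-like receptor, differed by 3.42 ± 0.52 log2 units (limma adjusted p = 0.00235). Crtam, a receptor of activated cytotoxic lymphocytes, read 162.7 and 168.9 in IKDC and was at least 2.76-fold higher (limma adjusted p = 0.00466). The Crtam call ended without IKDC replicate 1 (limma adjusted p = 0.129) or replicate 2 (0.137), in a range of 8.93e-04 to 0.137. Against PDC, 6 of the 9 were higher in IKDC and none was lower, with 2.71% of all tested genes higher. Without IKDC replicate 1 it was 3 of the 9.

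The activating receptors NKG2D and NKp46 signal through small adaptor proteins, and the genes of these adaptors did not share 1 pattern. Hcst, which encodes the NKG2D adaptor DAP10, read 1319.2 and 1679.8 in IKDC, 347.9 and 306.8 in PDC and 358.6 and 120.3 in cDC, the last of them under the highest unspiked U74B control. It differed by 2.74 ± 0.42 log2 units from cDC (limma adjusted p = 0.00394) and by 2.13 ± 0.42 from PDC (limma adjusted p = 0.0179). The Hcst call against PDC ended without either IKDC or either PDC sample (limma adjusted p = 0.0621 to 0.129) and without the intensity trend (0.085), in a range of 0.00289 to 0.129.

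Tyrobp, which encodes the second adaptor DAP12, read 2930.6 and 2952.8 in IKDC, 6613.9 and 5602.9 in PDC and 3524.7 and 1867.1 in cDC. The IKDC values lay between those of the cDC samples and under both of PDC. Its difference was 0.20 ± 0.32 log2 units against cDC (limma adjusted p = 0.802) and -1.05 ± 0.32 against PDC (limma adjusted p = 0.114). Of the alternatives with no sample left out, the value against PDC passed only with the replicate block (limma adjusted p = 0.0289). That difference ran from -1.16 to -0.914 over all alternatives. The 2 adaptors that NKp46 is known to use did not pass the test. Cd247, the CD3 zeta chain gene, stood at 186.6 and 158.6 in IKDC beside 69.6 and 19.2 in cDC. The signal of 19.2 was under the highest unspiked U74A control, so the fitted difference rests in part on it. The Cd247 difference was 1.78 ± 0.52 (limma adjusted p = 0.0775). That p was 0.0125 to 0.354 over all alternatives, and it passed in 7 of them, among them without either PDC sample (limma adjusted p = 0.038 and 0.0348). Fcer1g, the Fc receptor gamma chain gene, read 95.9 and 112.6 in IKDC and 283.6 and 88.5 in cDC (limma adjusted p = 0.561).

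In the whole list of receptor adaptors and proximal signalling, 19 of 21 genes could be tested. Over all tested genes, 3.5% were higher in IKDC than in cDC and 2.71% were higher in IKDC than in PDC. Of the 19, 4 were higher in IKDC than in cDC and none lower, with a median difference of 0.20 log2 units. Beside Hcst these were the kinase genes Zap70 (3.32 ± 0.40 log2 units, limma adjusted p = 4.67e-04) and Fyn (2.92 ± 0.33, limma adjusted p = 3.02e-04) and the adaptor gene Sh2d1a, which encodes SAP. Sh2d1a was at least 3.51-fold higher (limma adjusted p = 0.00233), and its call ended without IKDC replicate 1 (0.0992) or replicate 2 (0.0692), in a range of 2.97e-04 to 0.0992. Sh2d1a passed the signal filter through IKDC alone. Fyn read 1951.9 and 1636 in IKDC, 1335.7 and 2558.1 in PDC and 203.8 and 240.7 in cDC, so that IKDC and PDC overlapped and both lay above cDC. Of the further probe sets of these genes, 1 of the 2 of Zap70 passed against cDC, and neither the 1 of Fyn nor the 1 of Sh2d1a did. Pik3r1 was not called, while 1 of its other tested probe sets passed against cDC and 1 against PDC. Against PDC, 4 of the 19 were higher in IKDC and none lower, and without either IKDC sample it was 2.

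Inhibitory receptors such as CD94 with NKG2A are known to recruit the phosphatase SHP-1, encoded by Ptpn6. Ptpn6 read 518.5 and 378 in IKDC, 1051.8 and 1645.3 in PDC and 829.7 and 1116.2 in cDC, with IKDC below every other sample. The difference was -1.54 ± 0.31 log2 units against PDC (limma adjusted p = 0.0161) and -1.09 ± 0.31 against cDC (limma adjusted p = 0.0722). The call against PDC ended without IKDC replicate 1 (limma adjusted p = 0.0502), IKDC replicate 2 (0.181) or PDC replicate 2 (0.0883), after median centring (0.0865) and without the trend (0.0543), in a range of 0.00282 to 0.181. The value against cDC passed in 6 alternatives, among them without PDC replicate 1 (limma adjusted p = 0.0437) or replicate 2 (0.0428), in a range of 0.0313 to 0.416. Ptpn11, the related SHP-2 gene, differed by 0.28 ± 0.26 log2 units from cDC (limma adjusted p = 0.631). Against PDC that Ptpn11 probe set differed by 0.98 ± 0.26 (limma adjusted p = 0.0766). It passed with the filter at 200 (limma adjusted p = 0.0485) and without PDC replicate 2 (0.0489), in a range of 0.0485 to 0.376, and the other tested probe set of Ptpn11 passed against PDC.

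Ligands were covered thinly, with 5 of 17 listed genes tested. The Qa-1 gene and the NKG2D ligand genes are not analysed here. Cdh1, which encodes the KLRG1 ligand E-cadherin, read 116.7 and 136.5 in IKDC, 364.1 and 185.2 in PDC and 244.1 and 211.3 in cDC, and did not pass against cDC (limma adjusted p = 0.254). Nor did Cdh1 pass against PDC, where it differed by -0.96 ± 0.35 log2 units (limma adjusted p = 0.194). That difference was -1.42 without PDC replicate 2 and ran from -1.42 to -0.5 over all alternatives. Of the 5, the 1 that passed against cDC was Tap1, a subunit of the peptide transporter for MHC class I. Tap1 read 450 and 462 in IKDC, 558.6 and 702.9 in PDC and 1065.6 and 1257.7 in cDC, a difference of -1.31 ± 0.27 log2 units from cDC (limma adjusted p = 0.014). Its call ended without either IKDC or either cDC sample (limma adjusted p = 0.0567 to 0.122) and after median centring (0.0805), in a range of 0.00519 to 0.122, and its other tested probe set did not pass.

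NK lineage factors and cytokine receptors were tested for 11 of 13 listed genes. Over all tested genes, 3.5% were higher in IKDC than in cDC. Of the 11, 5 were higher in that comparison and none lower, with a median difference of 1.25 log2 units. Without IKDC replicate 2 it was 3 of the 11. Eomes, a T-box factor of NK cell maturation, read 1210.7 and 1316.3 in IKDC, 34.7 and 46.2 in PDC and 40.5 and 20.3 in cDC, at least 21-fold above either population (limma adjusted p = 2.58e-05 against cDC and 1.97e-05 against PDC). Il2rb, the shared beta chain of the interleukin 2 and 15 receptors, differed by 2.94 ± 0.28 log2 units from cDC (limma adjusted p = 2.61e-04). The interleukin 18 receptor genes Il18r1 and Il18rap differed by 2.54 ± 0.31 and 2.36 ± 0.42 (limma adjusted p = 5.85e-04 and 0.00654), the second at least 3.82-fold, and Ets1 differed by 2.34 ± 0.38 (limma adjusted p = 0.00463). The Il18rap call ended without IKDC replicate 1 (limma adjusted p = 0.104), IKDC replicate 2 (0.0556) or cDC replicate 1 (0.0593), in a range of 7.92e-04 to 0.104. That of Ets1 ended without IKDC replicate 2 (limma adjusted p = 0.0613, range 0.00231 to 0.0613), and Ets1, read on U74C, stood at 175.7 and 106.2 in cDC, the second under the highest unspiked control. Of the further probe sets of these genes, the 1 of Eomes and 1 of the 4 of Ets1 passed, and the 1 of Il2rb did not. Gata3 was not called, while 1 of its other tested probe sets passed against cDC. Runx3, a RUNX family factor gene of the list, read 189.6 and 206.6 in IKDC, 76.1 and 88.7 in PDC and 74.4 and 99.2 in cDC and did not pass (limma adjusted p = 0.164), with PDC and cDC under the highest unspiked U74B control.

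**Figure D3:**
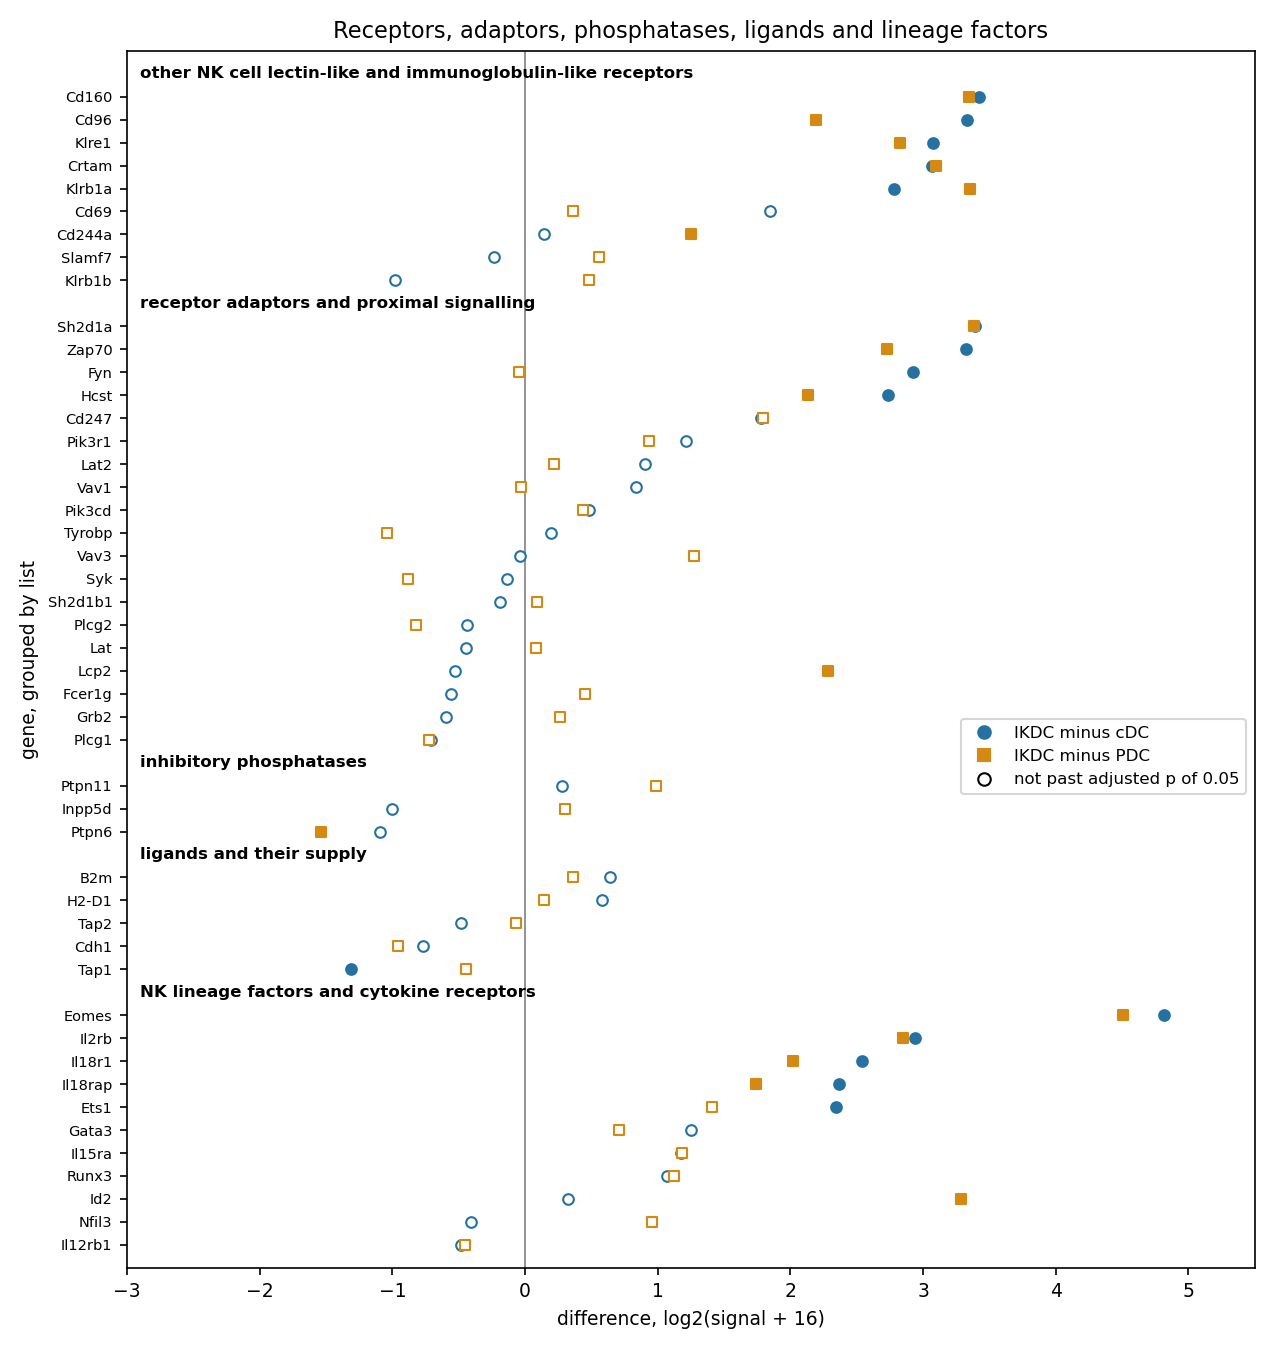
Difference in log2(signal + 16) between IKDC and cDC (circles) and between IKDC and PDC (squares) for each tested gene of 5 lists; filled symbols passed a limma adjusted p of 0.05. The receptor list has 5 filled circles of 9, the adaptor and signalling list 4 of 19 and the lineage list 5 of 11.

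Profiles were compared by the root mean square difference of log2(signal + 16) over the 6 samples, after each probe set's own mean was subtracted. The value is a description, since 6 samples in 3 populations share their arrays and a large step between populations dominates it. The nearest pair of receptor genes was Klrc1 and Klrg1, 0.28 log2 units apart, and the farthest Ncr1 and Klrc1, at 1.28. Klrk1, read on U74B, lay 0.49 from Klrg1, 0.56 from Klrd1, 0.57 from Klrc1 and 0.78 from Ncr1.

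Of 5425 other genes on U74A, those nearest to Ncr1 were Sh2d2a (0.33 log2 units), Eomes (0.33), Gimap4 (0.38) and Gzma (0.41). Those nearest to Klrd1 were Gimap1 (0.31), Il18r1 (0.33), Abcg2 (0.33) and Stard10 (0.33). Of 5695 other genes on U74B, those nearest to Klrk1 were Il2rb (0.17), Lax1 (0.19), Phactr3 (0.20) and Rab27b (0.27). Lax1, Phactr3 and Rab27b were under the highest unspiked U74B control in every PDC and cDC sample, so their distances rest on background signals there. On U74A the same held in both cDC samples for Sh2d2a, Eomes and Stard10. Il2rb read 2924 and 4342.8 in IKDC, 562.5 and 409.3 in PDC and 401.3 and 503.9 in cDC, and PDC and cDC overlapped in Il2rb as they did in Klrk1.

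The genes nearest to Klrc1 were Dsp (0.12), Slc2a1 (0.13), Col4a1 (0.15) and Septin1 (0.17). All 4 were under the highest unspiked U74A control in both cDC samples. Slc2a1, Col4a1 and Septin1 were also under it in both PDC samples, so their distances rest largely on background signals. Those nearest to Klrg1 were S100a10 (0.18), Dsp (0.19), Il18rap (0.25) and Slc2a1 (0.25). Il18rap, like Dsp and Slc2a1, was under that control in both cDC samples. S100a10 read 3106.7 and 2981 in IKDC, 1104.6 and 611.1 in PDC and 632.3 and 580.2 in cDC, and like Klrg1 it was higher in PDC replicate 1 than in PDC replicate 2.

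**Figure D4:**
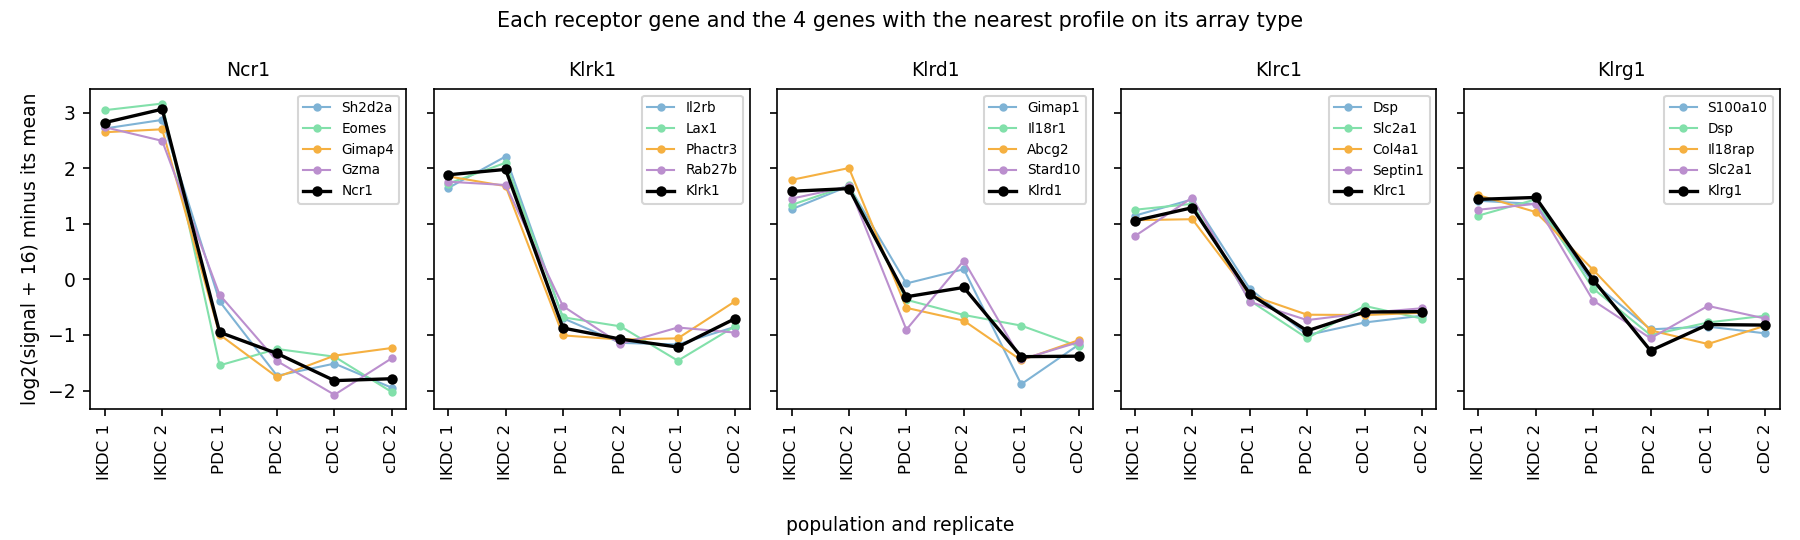
Log2(signal + 16) minus its mean over the 6 samples for each receptor gene (black) and the 4 genes with the nearest profile on the same array type (colours), by population and replicate. Every profile steps down from IKDC; the black line of Klrd1 steps down again from PDC to cDC, while that of Klrk1 does not.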

How the data were processed

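Biotin-labelled antisense cRNA, made from total RNA by amplification in a pair of rounds per the labels' protocols, was measured on 18 Affymetrix arrays. Each deposited value is a linear signal intensity, computed by the authors in GCOS 1.1.1 and scaled to 150 on every array, as the labels say. MAS5 stands in the submitters' processing notes. Scaling makes each fold relative to an array's mean, amplification favours 3' ends, and no detection calls were used. Groups and replicate numbers came from titles. Probe sets were named from the platform annotation, updated through gene identifiers to GRCm38.p6 names: of 36701 without controls, 29131 had 1 symbol, 724 several and 6846 none listed. None of those with several named a receptor described here.

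Values were used as log2(signal + 16), which understates changes of low genes. Probe sets with a signal of 60 on at least 2 of 6 arrays were fitted per array type with limma 3.58.1 in R 4.3.3 (lmFit, eBayes with trend; 3 populations, no block), tested on simulated data, and adjusted by Benjamini-Hochberg over all array types at 0.05. Where both samples of a group were under 60, the fold is the geometric mean of the other group over 60, given as at least N-fold. A listed gene was read by its tested probe set with the highest mean. Up to 5 genes per list with the smallest adjusted p against cDC were named, with direct partners of the receptors whatever their values; Runx3, Cd3d, Cd3g, Cd28, Cd4, Gzma and Gzmb were named after their values were seen. The receptors and lists were chosen with earlier results of these data known. Alternatives were other pseudocounts (1, 64), filters (none, 200), scalings, samples in the fit, no trend, adjustment within array type, the replicate number as a block, and each sample left out.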

Additional observations from a re-analysis of the deposited data

How the results depend on the processing

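The 7 receptor probe sets in 3 comparisons gave 336 values over 16 alternatives, of which 303 kept their direction and their side of the threshold, 25 lost the threshold and 8 changed sign. The sign changes were all between PDC and cDC in values that had not passed. They were Klrc1 with a pseudocount of 64 (9.0e-04), quantile normalization (0.045), median centring (0.0404) and without PDC replicate 2, Klrk1 116484_at with quantile normalization (0.021) and without cDC replicate 2 or PDC replicate 2, and Klrg1 without PDC replicate 1. With each sample left out in turn, these differences ran from -0.34 to 0.32, -0.27 to 0.24 and -0.47 to 0.81. Among the partner genes, values that had not passed changed sign for Tyrobp and Fcer1g against cDC and Fyn against PDC, from -0.26 to 0.65, -1.32 to 0.20 and -0.51 to 0.42 with each sample left out, and for Fyn also after median centring (0.082). The causes were not tested. The count of receptor probe sets called between PDC and cDC went from 1 to 0 with median centring, with only the 2 populations and with no trend. With 1 sample left out, the lone sample is assumed to vary like the others. The called receptor probe sets then numbered 4 to 7 against cDC, 0 to 0 between PDC and cDC and 3 to 7 between IKDC and PDC, and all called probe sets 593 to 1656, 327 to 719 and 493 to 869, from 1305, 849 and 1036. Median centring moved the median of all probe sets between IKDC and cDC from -0.013 to 0.107. The replicate block, fitted although the numbers only name samples (correlations of same-numbered deviations -0.086 to 0.235), gave 1650, 1055 and 1223 calls and the same 7, 1 and 7 receptor calls. Alternatives for partner genes were added after the data were seen. Signals under the highest unspiked control limit Ncr1 and Klrk1 93678_s_at in cDC, and 93678_s_at in PDC replicate 2.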

Other observations

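Id2, Lcp2 and Cd244a, listed genes singled out after their values were seen, separated IKDC from PDC more than from cDC in their values; that difference was not tested. Id2, an inhibitor of E proteins, read 3781.4 and 3010.6 in IKDC, 2575.9 and 2810.2 in cDC and 433.2 and 253.1 in PDC. It was higher in IKDC than in PDC by 3.29 ± 0.30 log2 units (limma adjusted p = 8.94e-05) and did not pass between IKDC and cDC (limma adjusted p = 0.624). Lcp2, which encodes the adaptor SLP-76, read 450.4 and 455.3 in IKDC, 654.4 and 664.8 in cDC and 100.3 and 63.9 in PDC. It was higher in IKDC than in PDC by 2.28 ± 0.29 log2 units (limma adjusted p = 7.8e-04) and did not pass against cDC (limma adjusted p = 0.371). Cd244a, the gene of the receptor 2B4, read 359.7 and 399.3 in IKDC, 353.1 and 329.4 in cDC and 172.8 and 129.7 in PDC. Its difference between IKDC and PDC was 1.25 ± 0.29 log2 units (limma adjusted p = 0.0295). The Cd244a call ended in 7 alternatives, among them without either IKDC sample (limma adjusted p = 0.169 and 0.263), without either cDC sample (0.0505 and 0.0511) and without PDC replicate 2 (0.0932), in a range of 0.0162 to 0.263.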
